A study of Mus musculus with 30 samples.

Results

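Histone genes were followed in poly(A)-selected RNA of mouse retinal organoids. The genes were all protein-coding genes of the deposited table whose symbol marks them as a gene of the Hist clusters (Hist1 to Hist4), as an H2A variant (H2af), as H3.3 (H3f3a, H3f3b) or as a linker histone of the H1f type. This gave 83 genes of the 45594 in the table, 68 in the Hist clusters and 15 outside them. The libraries came from 1 clone of Nrl-GFP wild-type induced pluripotent stem cells (iPSCs), grown into retinal organoids by a modified HIPRO protocol. The 10 groups are days of culture with 3 libraries each: undifferentiated iPSCs kept on feeder cells at D0, whole organoids at D4, and dissected neural retina on the later days, which were D7, D10, D12, D15 and D18, then D22, D25 and D32. An organoid library was a pool of 36 organoids (D4), 30 (D7), 20 (D10) or 12 (later days), so the spread below is between pools of 1 clone, and D0, D4 and later days also differ in the material taken. Cells of the clone carry the Nrl-GFP reporter, in which the promoter of a rod transcription factor drives a fluorescent protein. The protocol changed medium at D7, D10 and D26 and oxygen at D10 for all organoids alike.

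Histones are the proteins around which DNA is wound. The genes of the Hist clusters are mostly replication-dependent: they are switched on in S phase, and their mRNA normally ends just after a short stem-loop in place of a poly(A) tail. The stem-loop is bound by SLBP, and the U7 small nuclear RNP guides the cut behind it. Poly(A) selection therefore misses most of the output of these genes and catches only transcripts that run on to a poly(A) site. Histone variants encoded outside the clusters (H1.0, H2A.Z, H2A.X, macroH2A, H3.3) mostly have introns or ordinary poly(A) tails and are also made in cells that no longer divide. Levels are given in CPM, estimated counts per M counts of the library after TMM scaling. Changes were called where the adjusted p was below 0.05 in edgeR's quasi-likelihood test, with Benjamini-Hochberg adjustment over all 19897 tested genes.

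The cluster genes differ in where the annotated transcript model ends, and the following stem-loops show it. They are the genes that carry most of the cluster signal in these libraries, followed by H2afx and, for contrast, Hist1h2bk and Hist2h2ac, whose models end soon after the stem-loop. Capitals mark the 16 letters of the stem and loop, and the lower case bases are the flanks, all on the sense strand of GRCm38 with DNA letters, read from GENCODE M21 transcripts of the same length as the deposited models.
Hist1h1c: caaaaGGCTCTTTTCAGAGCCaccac
Hist3h2a: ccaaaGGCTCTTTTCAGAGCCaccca
Hist3h2ba: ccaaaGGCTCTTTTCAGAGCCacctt
Hist2h4: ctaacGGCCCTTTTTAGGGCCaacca
Hist1h4i: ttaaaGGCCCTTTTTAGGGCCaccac
H2afx: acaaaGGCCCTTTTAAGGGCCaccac
Hist1h2bk: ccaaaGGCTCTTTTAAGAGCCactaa
Hist2h2ac: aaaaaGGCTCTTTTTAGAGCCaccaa
The Hist1h1c stem-loop lies in the 3′ UTR of this single-exon gene at chr13:23739512-23739527 on the plus strand, with 840 bases of transcript model behind it. The Hist3h2a one is at chr11:58955172-58955187 with 1643 bases behind it, and that of Hist3h2ba at chr11:58949349-58949364 with 169 bases behind it. Hist2h4 (chr3:96262939-96262954, minus strand) has 1257 bases behind it and Hist1h4i (chr13:22040966-22040981, minus strand) has 330. H2afx, the damage-marking variant H2A.X, is the 1 gene outside the clusters with such a stem-loop (chr9:44335240-44335255), and its model goes on for 822 bases. The models of Hist1h2bk and Hist2h2ac end 30 and 57 bases behind the stem-loop. A poly(A) signal (AATAAA or ATTAAA in the last 50 bases) stood at the end of the model for 13 of the 68 cluster genes, Hist1h1c, Hist3h2a, Hist3h2ba, Hist2h4 and Hist1h4i among them. It was missing for 36, and for 19 the deposited model differed in length from GENCODE M21 and was not read. The 36 are a mixed class. Some models are short and hold no stem-loop, such as Hist1h2bl (381 bases) and Hist1h4k (312 bases). Others run on without a signal, such as Hist1h3e and Hist2h3c2, with 369 and 377 bases behind the stem-loop. A missing signal is thus a trait of the annotation and does not show where the RNA ends. Hist2h2be, one of the highest cluster genes, has the signal and no stem-loop of the searched form (16 letters with pairing stems of 6 bases).

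Of the 83 genes, 34 passed the filter on low counts, 23 of them in the clusters and 11 outside. The other 49 stayed under a mean of 1 CPM on every day other than D4, 2 of them had no count at all, and the germ line genes H1fnt, H2afb1, H2afb2 and H2afb3, known from testis, were among them. Over the 10 days 30 of the 34 changed in the F test over all days, where 91.4% of all tested genes did, so this share is that of the background. Hist1h2bq, Hist2h2aa2, Hist2h3c1 and Hist4h4 were not called.

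The summed level of the cluster genes was higher on each later day of D7, D18 and D32, while that of division genes was lower. It was 32.6 ± 1.37 CPM at D7, 130 ± 15.4 CPM at D18 and 174 ± 23.4 CPM at D32 (SD, n = 3 each). By library the sum was 31.1, 32.8 and 33.8 CPM at D7, 117, 147 and 126 CPM at D18, and 162, 159 and 201 CPM at D32, with no overlap between the 3 days. The highest day mean of the sum was 227 ± 65.8 CPM at D22. Over the same days the summed level of 26 division genes (cyclins, replication and spindle genes) averaged 5400 ± 168, 3280 ± 335 and 332 ± 15.09 CPM. All 26 division genes were lower at D32 than at D18 (median log2 change −3.7, 23.7% of all tested genes lower), and 17 of 26 were lower at D18 than at D7, where 22.23% of all tested genes were. In bulk libraries, fewer cells of a type and less RNA per cell cannot be told apart.

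The 13 genes whose models end in a poly(A) signal held most of this cluster signal at D7, D18 and D32, and less of it at D0. Their summed level was 18.103 ± 5.71 CPM at D0, 27.8 ± 0.912 CPM at D7, 120 ± 14.5 CPM at D18 and 152 ± 22.4 CPM at D32. The 36 genes without the signal summed to 7.42 ± 3.84 CPM at D0, 1.63 ± 0.171 CPM at D7, 4.17 ± 1.67 CPM at D18 and 6.97 ± 1.51 CPM at D32. The 19 genes whose models differ in length summed to 11.6 ± 4.55 CPM at D0, 3.17 ± 0.547 CPM at D7, 6.19 ± 1.18 CPM at D18 and 14.3 ± 2.36 CPM at D32. At D0 the 13 genes thus stood at 18.103 CPM of a cluster sum of 37.1 ± 14.1 CPM. The 8 cluster genes with the highest mean over the 29 libraries other than D4 replicate 2 were picked from these same values, so a high share is built in. They made up between 82% and 95.8% of the cluster sum in the 26 libraries from D4 on other than D4 replicate 2, and between 59.5% and 69.4% in the libraries of D0. These sums describe levels and carry no test. They are not scaled to transcript length, and the models with the signal are mostly longer, which favours them in CPM. Per kilobase of transcript at D0, Hist1h1c and Hist1h4i of the 13 genes stood at 5.65 ± 2.42 and 4.78 ± 1.18 CPM. Hist1h2bk and Hist1h2bj of the 36 stood at 3.94 ± 1.9 and 2.38 ± 0.909 CPM there, so the gap between the sums at D0 does not show a gap in transcript numbers.

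**Figure D1:**
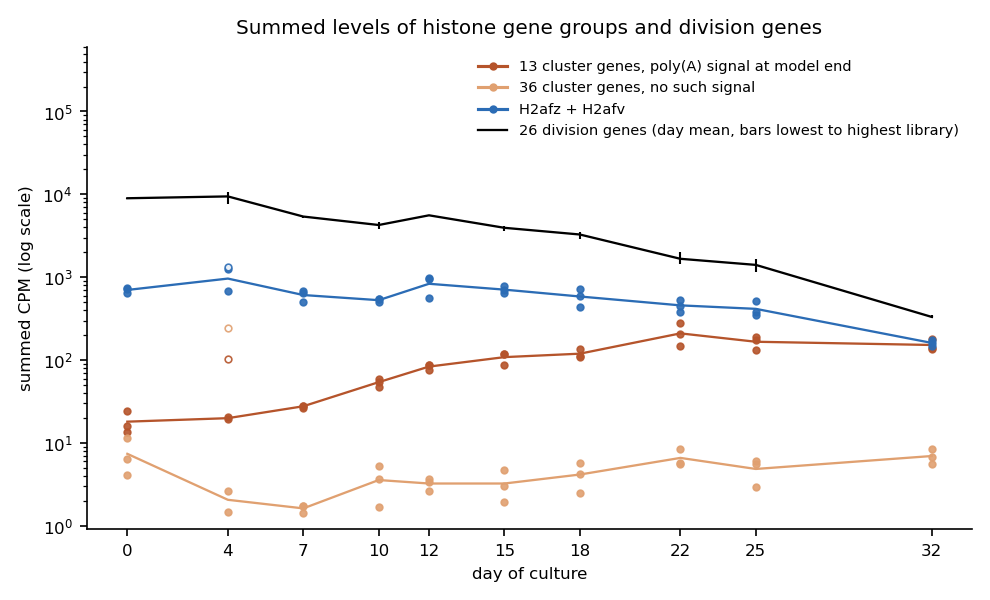
Summed CPM on a log axis against the day of culture for 13 cluster histone genes with a poly(A) signal at the model end, 36 without, the pair of H2A.Z genes, and 26 division genes. Points are libraries, open points are D4 replicate 2, which the coloured lines through the day means leave out; the 13 genes have their highest mean, 211 CPM, at D22 and stand at 152 CPM at D32, where the division genes are down to 332 CPM. The black line, with bars for the lowest and highest library, keeps D4 replicate 2.

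Hist3h2ba and Hist3h2a, an H2B and an H2A gene next to each other on chromosome 11, rose at D7 and again at D18. Hist3h2ba had 0.87, 0.924 and 0.806 CPM in the libraries of D0, 6.55, 6.25 and 6.92 CPM at D7, 41.8, 49.4 and 50 CPM at D18, and 32.22, 36.4 and 41.8 CPM at D32. The libraries of D7 stood above all those of D0 and the libraries of D18 above all those of D7, by log2 changes of 2.9 (SE 0.35, adjusted p = 9.1e-08) and 2.83 (SE 0.28, adjusted p = 1e-08). At D32 against D18 its log2 difference of −0.36 (SE 0.26) was not called. Hist3h2a had 1.32, 1.06 and 2.33 CPM at D0, 4.29, 4.16 and 2.67 CPM at D7, 22.197, 24.9 and 21.4 CPM at D18, and 33, 33.3 and 43.5 CPM at D32. No library of a later day overlapped the day before it in this list, and the log2 changes were 1.26 (SE 0.41, adjusted p = 0.01) for D7 vs D0 and 2.62 (SE 0.37, adjusted p = 2.1e-06) for D18 vs D7. The difference between D32 and D18, 0.68 (SE 0.34), was not called (adjusted p = 0.1) but was once D4 replicate 2 was left out (0.67, adjusted p = 0.018). Without replicate 2 of D0 the Hist3h2a change at D7 vs D0 was not called (1.06, adjusted p = 0.054). Of the 31-base stretches of their transcripts, 67.91% of Hist3h2a and 62.84% of Hist3h2ba occur in no other gene, Hist3h2a sharing most with the neighbouring Trim17, so part of these estimates rests on how shared reads were divided.

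The promoters of this pair and of Hist1h1c are shown because they are among the highest cluster genes and carry known boxes of histone genes. Each line gives the 250 bases before the RefSeq start on GRCm38.p6, 5′ to 3′ on the gene's plus strand, with capitals for the letters CCAAT (a box near many gene starts), TATAAA (a form of the TATA box), ATTTGCAT (the octamer of H2B genes) and AAACACA (the H1 box) on either strand.
Hist3h2ba (chr11:58948661-58948910): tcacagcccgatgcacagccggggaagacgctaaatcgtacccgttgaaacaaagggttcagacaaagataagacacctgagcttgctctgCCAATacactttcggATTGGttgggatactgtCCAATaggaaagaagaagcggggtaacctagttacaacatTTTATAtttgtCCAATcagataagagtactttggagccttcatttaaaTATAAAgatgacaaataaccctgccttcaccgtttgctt
Hist3h2a (chr11:58954435-58954684): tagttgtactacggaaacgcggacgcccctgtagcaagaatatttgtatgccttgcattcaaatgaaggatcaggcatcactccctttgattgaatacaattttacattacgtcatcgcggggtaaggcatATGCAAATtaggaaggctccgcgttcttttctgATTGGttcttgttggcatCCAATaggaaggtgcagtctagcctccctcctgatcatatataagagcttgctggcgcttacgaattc
Hist1h1c (chr13:23738557-23738806): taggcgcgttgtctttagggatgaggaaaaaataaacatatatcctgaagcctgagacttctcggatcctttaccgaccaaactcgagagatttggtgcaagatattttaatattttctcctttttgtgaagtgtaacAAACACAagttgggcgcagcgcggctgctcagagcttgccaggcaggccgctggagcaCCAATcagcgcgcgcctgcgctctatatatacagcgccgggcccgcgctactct
CCAAT was found in these 250-base windows of 81.7% of the 60 cluster genes with a promoter entry, against 33.85% of all 32851 RefSeq promoters, and TATAAA in 48.3% against 12.37%. By class, CCAAT stood in all H1, H2A and H2B promoters of the clusters, in 80.0% of 10 H3 promoters and in 25.0% of 12 H4 promoters. The octamer stood in 41.2% of 17 H2A promoters and 40.0% of 15 H2B promoters, in no promoter of the H1, H3 and H4 genes of the clusters, and in 1.6% of all promoters. The H1 box stood in 83.3% of the 6 cluster H1 promoters, against 6.25% of all. Windows of divergent H2A and H2B pairs overlap and share matches, neighbouring motifs may share letters, and 73 of the 83 genes matched 1 RefSeq promoter.

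Hist2h2be, a second H2B gene, rose in the same 2 spans. It had 0.715, 0.257 and 0.689 CPM at D0, 4.32, 4.25 and 4.94 CPM at D7, 16.3, 29.9 and 20.7 CPM at D18, and 25.25, 19.5 and 25.32 CPM at D32. The first 3 of these days did not overlap, with log2 changes of 3.01 (SE 0.41, adjusted p = 8.2e-07) for D7 vs D0 and 2.31 (SE 0.32, adjusted p = 2e-06) for D18 vs D7, while D32 and D18 overlapped (0.07, SE 0.3). Replicate 2 was the highest library of this gene on every day between D10 and D25. That replicate belongs to a set of libraries with a low share of Rpl3 reads assigned to pseudogenes, and Hist2h2be was the 1 of 26 members that differed between the sets within D10 to D25 (0.71 higher on the log2 scale, SE 0.09, adjusted p = 0.00011, where 4.71% of genes differed). For Hist2h2be, D18 vs D7 gave a log2 change of 2.74 (adjusted p = 2.6e-10) with the library set as a term. Of the D18 libraries only replicate 2 is in the set of the D7 libraries, so a comparison within that set has 1 library at D18 and its spread comes from other days. The set goes with the day for every gene. All D0 and D7 libraries have the low pseudogene share, and all D4 and D32 libraries the high one. The spans D18 vs D7 and D32 vs D18 are thus in part comparisons between the sets.

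Hist1h1c, the linker histone H1.2 of textbooks and the highest H1 of the clusters, rose at D18 and had its highest day mean at D22. Its libraries had 5.49, 7.92 and 12.9 CPM at D0, 4.62, 4.89 and 5.51 CPM at D7, 19.3, 24.5 and 12.27 CPM at D18, 83.1, 133 and 31.8 CPM at D22, and 30.3, 34.6 and 40.7 CPM at D32. D18 stood above D7 in every library (log2 change 1.9, SE 0.64, adjusted p = 0.016). At D22, the day of the highest mean, the libraries spread most. D32 was above D18 in every library, with a log2 difference of 0.91 (SE 0.6) that was not called. The D18 vs D7 call was lost without D7 replicate 1 (1.84, adjusted p = 0.052) and without D18 replicate 2 (1.66, adjusted p = 0.056).

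**Figure D2:**
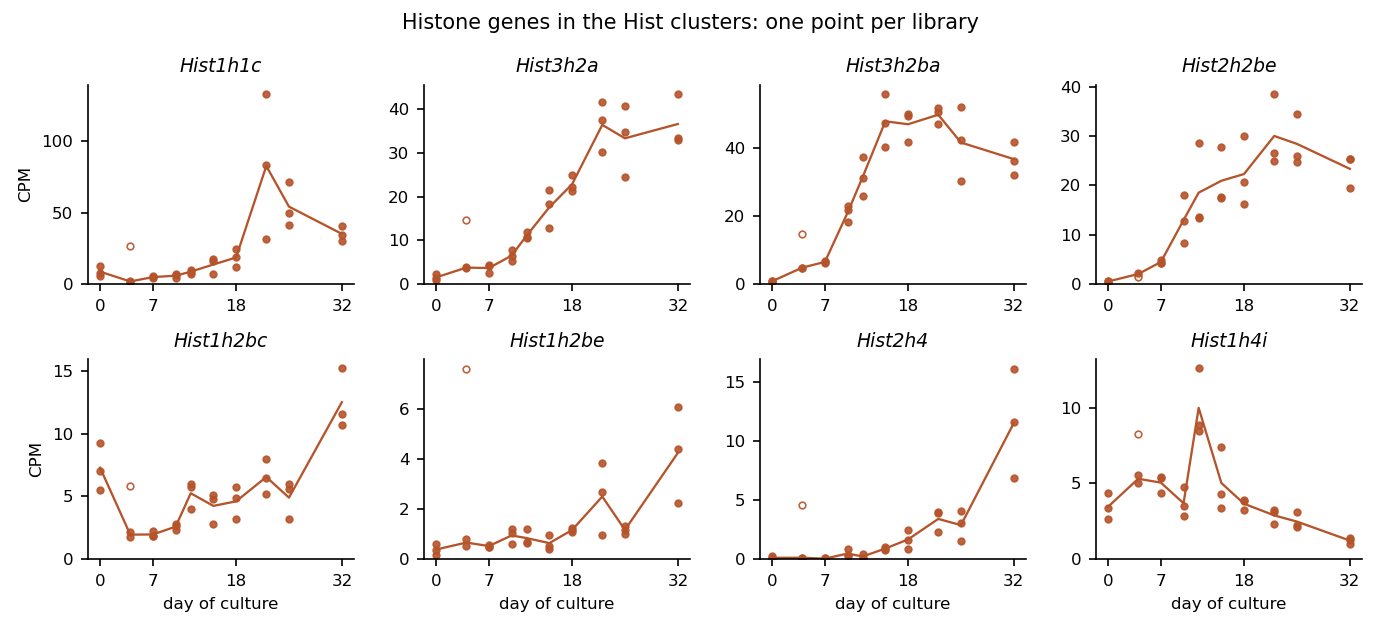
CPM of 8 cluster histone genes against the day of culture, a point per library, with the line through the day means drawn without D4 replicate 2 (open points). Hist3h2ba, Hist3h2a and Hist2h2be climb between D7 and D18, Hist1h1c peaks at D22 with libraries between 31.8 and 133 CPM, Hist2h4, Hist1h2bc and Hist1h2be are highest at D32 when the open points are left aside, and Hist1h4i is lowest there.

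Of the H4 genes, Hist2h4 and Hist1h4i went opposite ways. Hist2h4 had 0, 0.0537 and 0.0568 CPM at D7, 2.5, 0.862 and 1.62 CPM at D18, and 11.6, 6.83 and 16.1 CPM at D32, each day above the one before. Its 106 counts at D18 stand against 2 at D7, a ratio of 47 with an exact 95% counting interval of 12.7 to 393, and the log2 change at D32 vs D18 was 2.79 (SE 0.75, adjusted p = 0.0036). The call at D32 vs D18 was lost when only the libraries with a high share of Rpl3 pseudogene reads were used (2.48, adjusted p = 0.06). Hist1h4i had 1.29, 1.02 and 1.36 CPM at D32, against 3.89, 3.81 and 3.26 CPM at D18, and its highest day mean was 9.97 ± 2.27 CPM at D12. It was lower in every D32 library than in any of D18 (−1.56, SE 0.3, adjusted p = 0.00013) and was the only cluster gene called lower in this span.

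Of the H2B genes with a lower level, Hist1h2bc had 5.55, 7.03 and 9.3 CPM at D0, 1.83, 1.82 and 2.25 CPM at D7, 3.21, 4.86 and 5.76 CPM at D18, and 10.7, 11.6 and 15.27 CPM at D32. It fell at D7 vs D0 (−1.89, SE 0.37, adjusted p = 8.6e-05) and rose in both later spans, by 1.22 (SE 0.36, adjusted p = 0.0071) at D18 vs D7 and 1.44 (SE 0.35, adjusted p = 0.0014) at D32 vs D18, with no overlap between the days compared. Hist1h2be, which shares sequence with Hist1h1e, had 4.39, 2.25 and 6.07 CPM at D32 and 1.09, 1.15 and 1.24 CPM at D18 (1.87, SE 0.65, adjusted p = 0.021), a call that was lost without any 1 of the 3 D18 libraries or without D32 replicate 3 (adjusted p between 0.052 and 0.096), and with only the libraries of the high Rpl3 pseudogene share (adjusted p = 0.12). Most of the Hist1h2be estimate lay on 1 transcript that is not labelled protein coding, Hist1h2be-003, with 74.9 ± 7.74% at D18 and 82.3 ± 0.778% at D32. In these estimates the rise lies mostly on that transcript. The division between the models is unstable, however, with Hist1h2be-003 at 67.3, 84.2 and 19.5% in the D0 libraries. Which transcript carried the rise was not tested. The poly(A) signal read for this gene is also that of Hist1h2be-003. Hist1h2bk and Hist1h2bj, whose models end near the stem-loop, were lower at D7 than at D0. Hist1h2bj had 11.9, 21.5 and 26.1 counts at D0. Elsewhere only D4 replicate 2 (86.5) and D10 replicate 3 (11.8) had over 10. It thus passed the filter on low counts only through D0, so the direction of its call was built in. Hist1h2bk had 2 counts at D7 and 101 at D0, a ratio of 0.0195 (exact 95% counting interval 0.00233 to 0.0724), and Hist1h2bj 2 and 60, a ratio of 0.0329 (0.00389 to 0.124). Hist1h2bk and Hist1h2bj have 24.66% and 32.79% of their 31-base stretches to themselves, so their estimates are uncertain between H2B copies. Of the cluster H3 genes, Hist2h3c2, chosen after its values were seen, was called higher at D18 than at D7 (0.937 ± 0.216 and 0.0926 ± 0.119 CPM, adjusted p = 0.045). Hist2h3c1, whose stem-loop and flanks have the same letters, went the other way without a call, at 0.139 ± 0.235 CPM at D18 and 0.255 ± 0.224 CPM at D7. How reads were divided between these copies was not tested, so the size of the Hist2h3c2 rise is uncertain.

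Counted over the spans, 11 of the 34 tested histone genes changed at D7 vs D0, where 58.4% of all tested genes did. Of these 8 were higher and 3 lower, against 28.8% and 29.6% of all tested genes. Among the 3 is Hist1h2bj, which passed the filter on low counts only through D0. At D18 vs D7, 11 changed (49.1% of all genes), 10 of them higher and 1 lower, against 26.8% and 22.23% of all genes. In the clusters were 7 of the 10, near the part of the clusters in the tested genes (23 of 34). At D32 vs D18, 13 changed (44.3% of all genes), 4 of them higher and 9 lower, against 20.6% and 23.7%. In that span 3 cluster genes were higher and 1 lower of 23, while 1 gene outside the clusters was higher and 8 lower of 11. The 1 higher gene outside is H1foo, which passed the filter on low counts only through D32. The median log2 change was 0.52 over the tested cluster genes and −1.33 over the tested genes outside, beside −0.01 over all tested genes. At D18 vs D7 the markers of several retinal cell types moved too. The 5 ganglion and amacrine cell markers summed to 169 to 250 CPM at D18 and 12.4 to 32.4 CPM at D7 (5 of 5 higher), and the 5 photoreceptor markers to 388 to 653 CPM at D18 and 5.87 to 15.302 CPM at D7 (4 of 5 higher), with Slc32a1 and Nr2e3 at 0 at D7. The 5 progenitor markers summed to 1350 to 1520 CPM at D18 and 220 to 240 CPM at D7 (3 of 5 higher). The 3 pigment epithelium markers summed to 19.9 to 40 CPM at D18 and 548 to 712 CPM at D7, with 1 of 3 called lower and Rpe65 at 0 on both days. Their part in the histone levels was not tested. At D7 vs D0 the markers of feeder fibroblasts were lower as well: their summed level was 70.7 to 82.2 CPM at D7 and 480 to 1280 CPM at D0, with 5 of 5 lower and none at 0, and their part in the D0 levels was not tested.

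**Figure D3:**
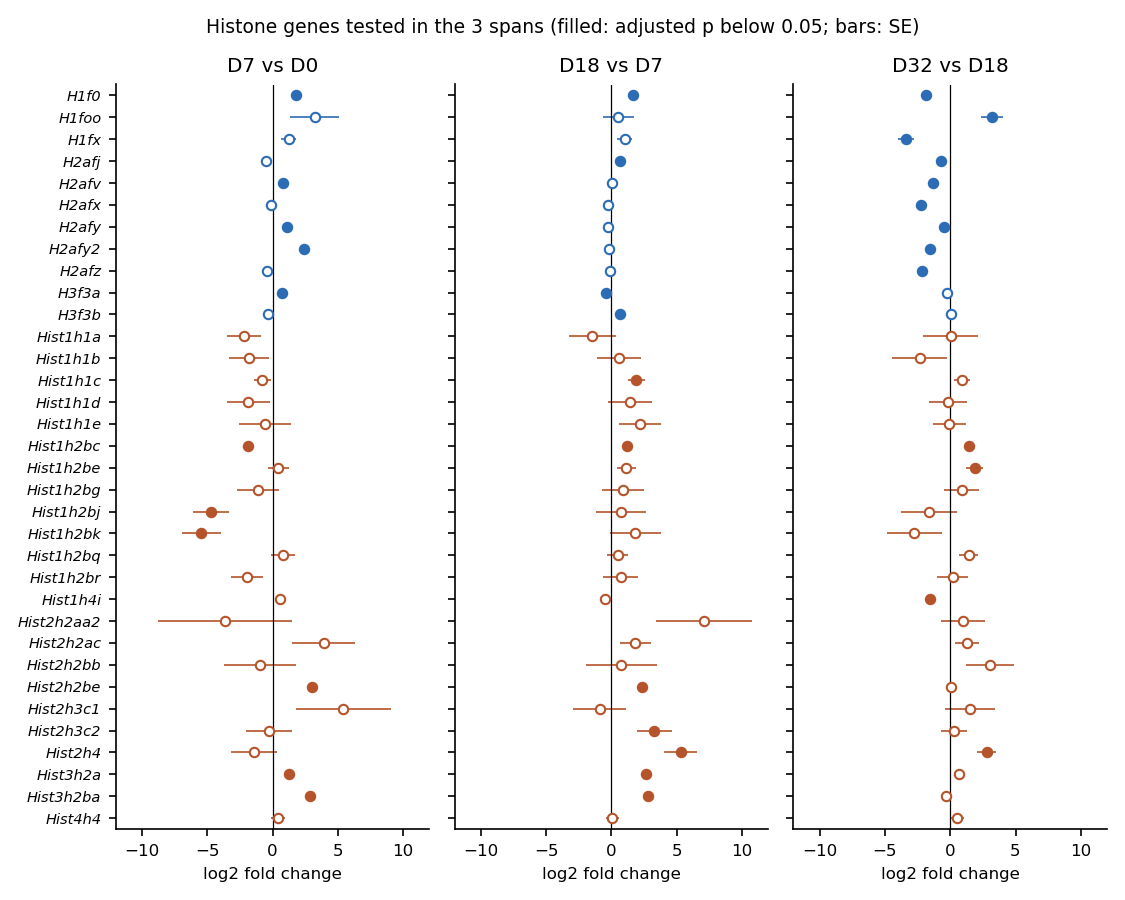
Log2 fold change with its standard error for the 34 tested histone genes in 3 panels (D7 vs D0, then D18 vs D7, then D32 vs D18), blue for genes outside the clusters and brown for cluster genes, filled where the adjusted p was below 0.05. At D32 vs D18 8 of 11 blue points are filled below 0, where 23.7% of all tested genes were lower. At D18 vs D7 7 of 23 brown points are filled, all above 0, where 26.8% of all tested genes were higher.

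Outside the clusters, the main linker histone gene rose at D7 vs D0 and at D18 vs D7 and fell at D32 vs D18. This gene, H1f0, encodes H1.0, a linker histone known to build up in cells that leave the cycle. It had 41, 47.3 and 50.6 CPM at D0, 143, 169 and 167 CPM at D7, 527, 539 and 432 CPM at D18, and 139, 113 and 154 CPM at D32. Its highest day mean was 626 ± 53.2 CPM at D15. The days D0, D7 and D18 did not overlap, with log2 changes of 1.78 (SE 0.15, adjusted p = 4e-10) for D7 vs D0 and 1.65 (SE 0.15, adjusted p = 2.6e-09) for D18 vs D7, and every D32 library was below every D18 library (−1.88, SE 0.15, adjusted p = 2.7e-10). H1fx, encoding the variant linker histone H1.10, had 2.23, 4.76 and 2.39 CPM at D32 and 16, 30.3 and 52.3 CPM at D18 (−3.39, SE 0.63, adjusted p = 9.5e-05). This was the largest called fall of a histone gene in that span, although the libraries within D18 differ widely. H1foo, the linker histone known from oocytes, stood at 0.787 ± 0.269 CPM at D32 and 0.0785 ± 0.136 CPM at D18, levels of few counts. It had 19.1, 20.1 and 9.7 counts at D32 and at most 6.8 in any other library. It thus passed the filter on low counts only through D32. The direction of its call at D32 vs D18 (log2 change 3.19, SE 0.85) was therefore built in.

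The H2A variants fell late. H2afz, which encodes H2A.Z.1, a variant placed around gene starts, had 88.4, 84.9 and 101 CPM at D32 and 288, 419 and 526 CPM at D18 (−2.17, SE 0.29, adjusted p = 9e-07). Its paralog H2afv, encoding H2A.Z.2, had 71.1, 64.9 and 73.3 CPM at D32 and 155, 178 and 192 CPM at D18 (−1.33, SE 0.12, adjusted p = 2.3e-09). Earlier the pair differed in what was called: H2afv was higher at D7 than at D0 (168 ± 4.45 and 95 ± 7.36 CPM, log2 change 0.82, adjusted p = 2.4e-06), and H2afz was not (442 ± 97.3 and 608 ± 50.2 CPM, −0.46, SE 0.28); the difference between the paralogs was not tested. H2afx had 15.4, 18.9 and 12.8 CPM at D32 and 64.3, 73.2 and 81.9 CPM at D18 (−2.22, SE 0.2, adjusted p = 1.9e-09), and no change was called in the earlier spans. H2afj, an H2A variant gene, was called higher at D18 than at D7 (13.7 ± 3.04 and 8.53 ± 0.743 CPM, 0.69, adjusted p = 0.014) and lower at D32 than at D18 (8.46 ± 0.493 and 13.7 ± 3.04 CPM, −0.7, adjusted p = 0.014), both of which were lost without D18 replicate 3. The H2afj call at D18 vs D7 was also lost without D7 replicate 3 and with the library set as a term (0.49, adjusted p = 0.078), and the call at D32 vs D18 without D32 replicate 3.

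The macroH2A genes, whose products carry a large extra domain and are known from silent chromatin, were called higher at D7 than at D0. H2afy had 313, 300 and 278 CPM at D7 and 150, 151 and 109 CPM at D0 (1.12, SE 0.19, adjusted p = 1.2e-05). H2afy2 had 149, 145 and 152 CPM at D7 and 28.5, 29.6 and 25.6 CPM at D0 (2.41, SE 0.16, adjusted p = 4.5e-12). At D32 H2afy2 was down to 42.7, 43.1 and 44.9 CPM, against 112, 140 and 133 CPM at D18 (−1.56, SE 0.16, adjusted p = 1e-08). The H2afy difference in this span, −0.46 (SE 0.18, adjusted p = 0.046), lost its call in 11 of 18 alternatives, among them without D18 replicate 2 or 3 or D32 replicate 1 or 3.

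H3f3a and H3f3b encode the same protein, H3.3, the H3 that is deposited outside replication. H3f3b had 624, 679 and 607 CPM at D7, 881, 1140 and 977 CPM at D18, and 977, 1150 and 1050 CPM at D32, with its highest day mean of 1340 ± 180 CPM at D22. It rose at D18 vs D7 (0.65, SE 0.15, adjusted p = 0.00089) and was not called at D32 vs D18 (0.08, SE 0.15). H3f3a had 533, 499 and 565 CPM at D0, 885, 909 and 891 CPM at D7, 567, 745 and 751 CPM at D18, and 567, 498 and 648 CPM at D32. It was higher at D7 than at D0 (0.75, SE 0.14, adjusted p = 6.2e-05) and lower at D18 than at D7 (−0.38, SE 0.14, adjusted p = 0.027), and the call at D18 vs D7 was lost in 6 of 18 alternatives, among them without D7 replicate 1, D7 replicate 2 or D18 replicate 1. Per kilobase of transcript, H3f3a stood at 1120 ± 8.55 CPM and H3f3b at 382 ± 19.6 CPM at D7, and at 714 ± 93.8 and 639 ± 46.6 CPM at D32. The H3f3a and H3f3b transcripts share 31-base stretches with processed pseudogenes (87.25% and 88.76% are their own), and the H2afz transcripts do too (81.3%).

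**Figure D4:**
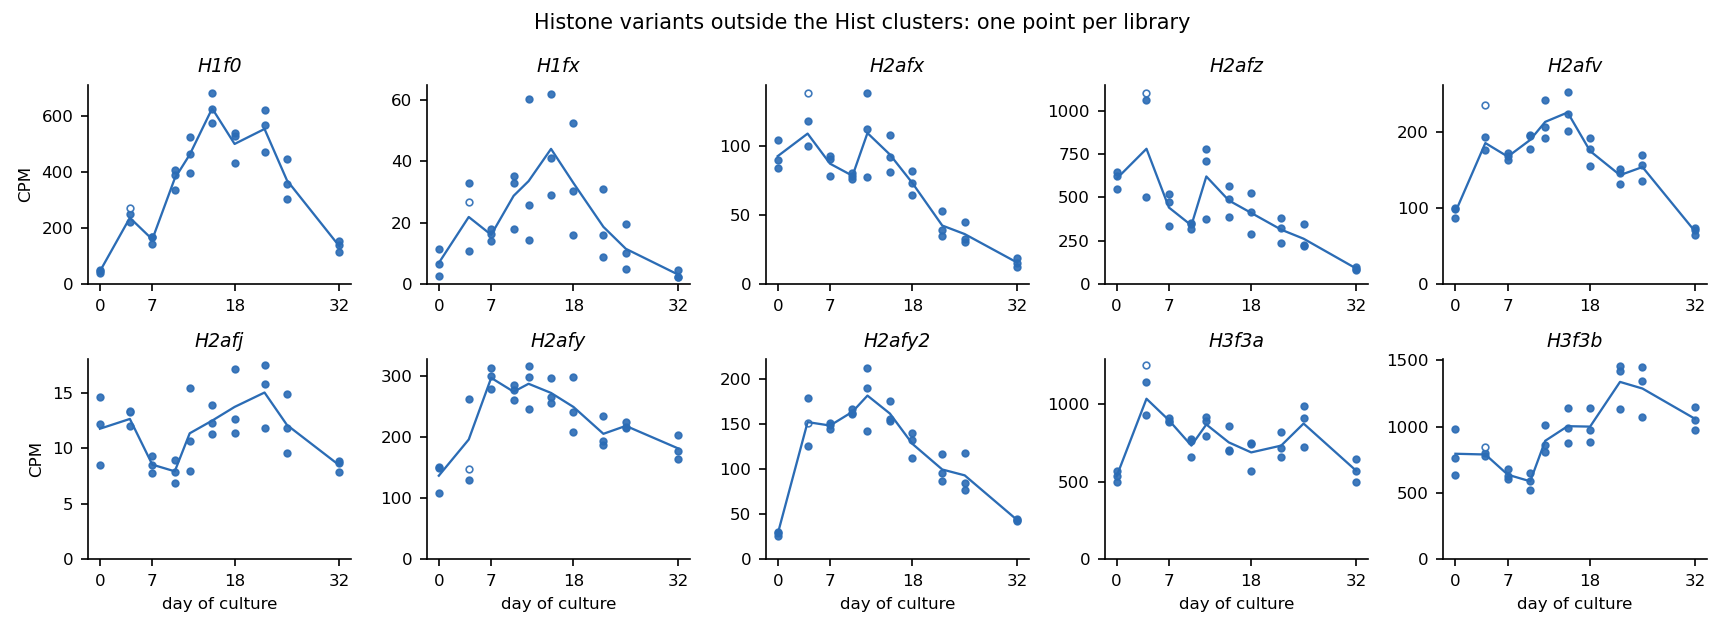
CPM of 10 histone genes outside the clusters against the day of culture, a point per library, with the line through the day means drawn without D4 replicate 2 (open points). H1f0 is highest at D15, the H2A.Z, H2A.X and macroH2A genes are all lower at D32 than at D18, and H3f3b stays near 1060 CPM at D32.

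Among 8 histone genes with at least 2 transcripts to compare, none changed its transcript usage in any of the 3 spans by edgeR's diffSpliceDGE with Simes' method, and none had an unadjusted p below 0.05. Over all genes 8.07% were called at D7 vs D0, 4.54% at D18 vs D7 and 4.04% at D32 vs D18. The main H2afy transcript took 76.9 ± 1.87% of that gene's estimate at D7, 69.2 ± 2.63% at D18 and 60.3 ± 4.32% at D32, with 64.4 ± 1.56% at D10 and 76 ± 3.52% at D12 between them; no difference was called (adjusted p = 0.84 at D18 vs D7 and 0.78 at D32 vs D18).

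Genes that make, carry and place histones were taken as lists. Of 13 genes of histone mRNA synthesis and 3′ end formation, 9 were lower and 1 higher at D32 vs D18, where 23.7% of all tested genes were lower and 20.6% higher. Slbp, the stem-loop binding protein, averaged 21.1 ± 0.315 CPM at D32 and 69.5 ± 8.24 CPM at D18 (−1.72, adjusted p = 7.5e-10), and Eri1, an exonuclease of the histone mRNA end, 21 ± 2.23 and 48.5 ± 0.582 CPM (−1.21, adjusted p = 9.4e-07). Lsm11, part of the U7 particle, was the 1 called the other way, with 44.6 ± 2.3 CPM at D32 and 25.9 ± 1.75 CPM at D18 (0.79, adjusted p = 3.7e-05). All 7 chaperones that handle H3 and H4 at replication were lower at D32 than at D18, with a median log2 change of −1.94. Chaf1b and Chaf1a, subunits of CAF-1, fell by 3.51 and 3.09 on the log2 scale, and Asf1b fell by 3.18.

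The same shares of all tested genes, 23.7% lower and 20.6% higher, stand beside the lists for H3.3, H2A.Z and H2A-H2B. Of 6 genes for placing H3.3, 2 were lower at D32 than at D18, Hira at 61.1 ± 3.2 and 90.5 ± 8.27 CPM (−0.57) and Ubn1 at 93.6 ± 0.876 and 128 ± 10.9 CPM (−0.45), and none was higher; 2 of 6 is near the share of all genes. Of 9 genes that exchange H2A.Z, 5 were lower and none higher, Actl6a most (−1.21). Among 9 chaperones of H2A and H2B, 5 were lower and 3 higher at D32 vs D18. Npm1 averaged 203 ± 21.5 CPM at D32 and 665 ± 55.9 CPM at D18 (−1.72, adjusted p = 5.3e-08). The 3 that rose are nucleosome assembly genes known from neurons: Nap1l5 with 48.1 ± 2.91 CPM at D32 and 7.42 ± 2.73 CPM at D18 (2.69, adjusted p = 1.5e-08), Nap1l2 with 16.6 ± 3.06 and 6.27 ± 0.156 CPM (1.41), and Nap1l3 with 11.5 ± 0.591 and 4.43 ± 0.87 CPM (1.38). Over the same span the 5 photoreceptor markers summed to 6330 ± 840 CPM at D32 and 532 ± 134 CPM at D18, the 5 progenitor markers to 346 ± 52.9 and 1430 ± 83.4 CPM, and the 4 Müller glia markers to 491 ± 73.7 and 177 ± 42.8 CPM; their part in the histone levels was not tested.

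The library of D4 replicate 2 stands apart. Of the 68 cluster genes 54 had their highest level of all 30 libraries there, where 8.43% of all genes with a count did, and 3 of the 15 genes outside the clusters. Its cluster genes held 7537 counts, against 422 and 475 in replicates 1 and 3 of D4. Hist1h1a, an H1 gene, had 56.1 CPM there and at most 1.55 CPM in any other library, and the 36 cluster genes without a poly(A) signal summed to 245 CPM there, against 1.47 and 2.66 CPM in the other D4 libraries. Ribosomal RNA made up 18.4% of its counts and 0.0634% to 0.218% of the other libraries, and RNAs that carry no poly(A) tail, a set chosen after their values were seen, were high as well: Rn7sk had 21075.2 counts there and 16.1 and 39.6 in the other D4 libraries. Whether unselected RNA in this library gave its histone levels was not tested. It is in no group of the 3 spans, but it enters the shared estimate of the spread, the filter on low counts and the scaling. In the F test over all days it is also 1 of the 3 libraries behind the D4 mean. Without it, 8 histone genes were higher and 5 lower at D7 vs D0, 11 and 1 at D18 vs D7, and 6 and 9 at D32 vs D18, of 35 tested. Hist1h1a was among those lower at D7 vs D0 (−2.21, adjusted p = 0.01), but was not called with all libraries (−2.2, SE 1.32, adjusted p = 0.16). It had 0.252, 0.323 and 0.227 CPM at D7 and 1.14, 1.08 and 1.55 CPM at D0, levels of few counts. Without D4 replicate 2, Hist1h1a passed the filter only through the D0 libraries (20.7, 20.8 and 26.9 counts), so the direction of that call was built in.

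**Figure D5:**
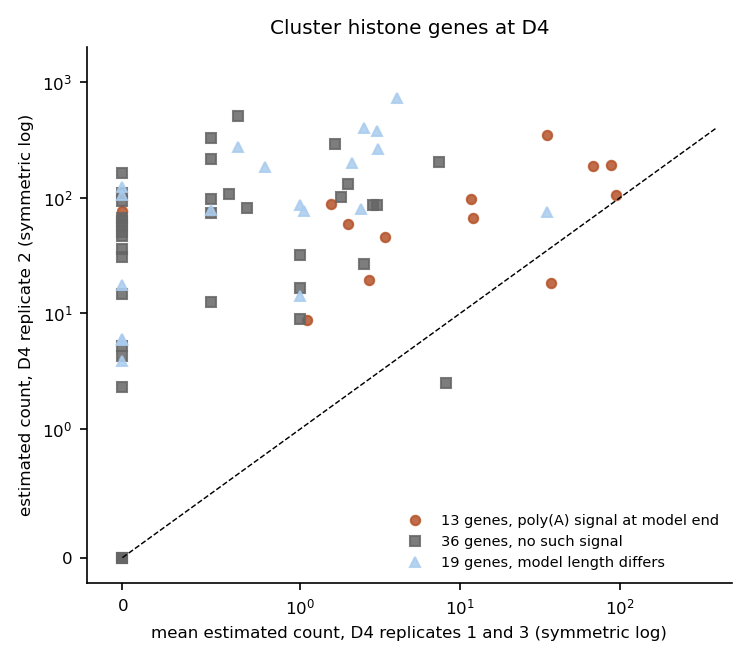
Estimated counts of the 68 cluster histone genes in D4 replicate 2 against the mean of D4 replicates 1 and 3, both on symmetric log axes, with symbols for the end of the transcript model and a dashed line of equal counts. Nearly every gene lies above the line, and most genes without a poly(A) signal lie near 0 on the horizontal axis.

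The 30 libraries held 16.77 to 24.53 M estimated counts, so that 1 CPM stands for 16.77 to 24.53 counts before scaling, and TMM factors were 0.524 to 1.162, the lowest being D4 replicate 2. Histone genes took 0.197% to 0.429% of the counts of a library other than D4 replicate 2. Of the marker lists, 4 iPSC markers summed to 2130 ± 175 CPM at D0, and microglia and blood markers to between 0.195 and 0.867 CPM in any library.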

How the data were processed

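Poly(A) RNA of 30 libraries, 3 for each of 10 days, was read as directional libraries per the labels' protocols. Reads were trimmed with Trimmomatic 0.36, quantified with kallisto 0.42.4 on GRCm38.p4 and normalised with edgeR, per the submitters' processing notes. The deposited gene and transcript tables hold estimated counts, which need not be whole; the third deposited table holds a normalised CPM signal per gene, which the authors scaled. How transcript estimates became gene estimates, and the use of strand, are not given in the sources used here, and kallisto divides reads shared by near-identical histone copies. In each deposited file 3 columns matched no listed sample and were not used, 9 in all.

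Rounded estimated counts went into edgeR 4.0.16 (R 4.3.3): filterByExpr by day (minimum count 10, minimum total 15), TMM factors, a mean per day over all 30 libraries, and the quasi-likelihood F test over the 10 days and for the spans D7 vs D0, then D18 vs D7, then D32 vs D18, with Benjamini-Hochberg adjustment over 19897 genes and a threshold of 0.05. CPM values are rounded to 3 or 4 digits. Transcript usage was tested with diffSpliceDGE. Both tests were tried on simulated data. The smallest counts are given as ratios with exact intervals, which cover counting error only.

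The members and lists were chosen with earlier results of these data known. Named were every tested gene outside the clusters, the 8 highest cluster genes by mean CPM over all 30 libraries, and in each span up to 5 called cluster genes with the largest rises and falls at 1 CPM or more. Hist1h1a is among these 8 through D4 replicate 2, and the 8 genes of the cluster share, picked without that library, hold Hist4h4 in its place. Replicates were labelled biological replicates of 1 clone. Alternatives were RLE factors, no factors, DESeq2 1.42.0, other filters, limma 3.58.1 on log2 of the CPM (plus 1 or plus 0.1) from the deposited signal table, the replicate number or the library set (share of Rpl3 estimates on pseudogenes under or over 50%) as a term, only the 6 libraries of a span, and each library left out. Only the libraries of 1 set were used in alternatives added after the data were seen.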

Additional observations from a re-analysis of the deposited data

How the results depend on the processing

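The 7 counts of changed histone genes and the 3 counts of changed transcript usage kept within 1.5 times their value in 163 of 175 recomputations, and no named gene with a call reversed. Of 1150 recomputed changes of named genes, 1094 kept their side of the threshold, 32 lost it and 24 gained it. The count of genes lower at D7 vs D0 was 3, but 5 with RLE factors, 6 with DESeq2, 5 without D4 replicate 2 and 5 with only the 6 libraries of both days. The count lower at D18 vs D7 was 1 (H3f3a) and was 0 without factors and 0 with the library set as a term. With no filter beyond 1 count 66 of 81 genes changed over the 10 days. That test includes D4 replicate 2, where 54 of the 68 cluster genes had their highest level, so the count is not read as change over days. No share of all tested genes called stands beside the counts of the alternatives in this paragraph, the replicate block included. They are therefore not set against a background. With only the libraries of the high pseudogene share 2 genes were higher at D32 vs D18, against 4 with all libraries. Leaving out 1 library at a time gave 30 to 38 changed over the 10 days, 7 to 10 higher and 3 to 5 lower at D7 vs D0, 8 to 11 higher and 0 to 1 lower at D18 vs D7, and 3 to 6 higher and 7 to 10 lower at D32 vs D18; a lower group size then lets more genes pass the filter. For the others the cause was not tested. Without factors the median log2 change of all genes was 0.19 at D7 vs D0, 0.17 at D18 vs D7 and 0.07 at D32 vs D18, and the share of higher genes among those called was 58%, 62.5% and 52.2%, against 49.3%, 54.7% and 46.5%. Same-numbered libraries of the compared days deviated from their day means with correlations between -0.27 and 0.2, so the numbers do not pair the samples of these 3 spans. From D10 to D25 the number does go with the library set, as only replicate 2 has the low pseudogene share on each of those days. With the replicate block 30 genes changed over the 10 days, 9 were higher and 3 lower at D7 vs D0, 10 and 1 at D18 vs D7, and 4 and 8 at D32 vs D18.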
